A study of Homo sapiens with 6 samples.

Results

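H3K4me3, the trimethylation of lysine 4 on histone H3, was compared by ChIP-seq between 1 library of D283 tumorspheres with OTX2 (OTX2high) and 1 library after OTX2 silencing (OTX2low). D283 is an established human cell line of Group 3 medulloblastoma, a childhood tumor of the cerebellum, and both libraries came from cells grown as floating spheres in a serum-free medium with B27, N2, bFGF and EGF. OTX2low cells received 30 nM siRNA against OTX2 and OTX2high cells a scramble siRNA without a target. An siRNA acts on the transcript, so H3K4me3 at OTX2 itself is no check of the silencing. These are 2 of the 6 samples of the series. The others are 2 H3K27me3 libraries and 2 IgG libraries whose titles and silencing labels name opposite conditions. The comparison took in all 21714 H3K4me3 regions that the authors listed as differing between the libraries (of 27115 differential regions in the series) and both peak lists, with 33201 peaks in OTX2high and 28824 in OTX2low.

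H3K4me3 is laid down around the starts of genes by the SET1 and MLL methyltransferase complexes and marks promoters that are active or held ready for use. It is strongest at CpG-rich promoters, and at many developmental genes it lies together with H3K27me3, the mark of Polycomb repressive complexes, a state called bivalent. OTX2 is a homeodomain transcription factor of the forebrain, midbrain and retina that is highly expressed in Group 3 tumors, where retinal genes such as CRX are also active.

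Each condition had 1 library, so nothing here was tested between conditions, and no value has a spread between replicates. Intervals are 95% exact (Clopper-Pearson) intervals that cover counting error only, and PCR reads are not independent molecules. The libraries held 33137731 tags (OTX2high) and 20914582 tags (OTX2low). A gene was called marked when a peak of either list, or a differential region of at least 200 reads that overlapped a peak, came within 2000 bp of its start, which held for 13877 of 19970 coding genes. Markers of the line were written into a list and looked up. OTX2, CRX, EYS, IMPG2, NRL and MYC had a peak at the start in both lists, as did SOX2 and NES of neural precursors. So did 13494 of the 19970 coding genes, so these peaks are no check of the line's identity. Of the immune, blood and endothelial markers 6 of 24 had a peak in each list, and of the mesenchymal, muscle and epithelial markers 7 of 23.

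The most widespread difference was a higher H3K4me3 level in OTX2high. Over 9634 regions that lay in peaks of both lists and held at least 200 reads, the median ratio of OTX2high to OTX2low was 1.46-fold (0.54 on the log2 scale). This median is called the shift below, and a ratio beyond the shift is the log2 ratio minus 0.54. It covers only regions past the authors' p-value cutoff, so regions with near-equal levels are missing from it. Over all 13877 marked genes, with those lacking a region of at least 200 reads in a peak set to 0, the median was 0.37. The regions of 29 housekeeping genes had a median log2 ratio of 0.51. Ribosomal protein genes, with a region at 74 of their 78 starts, had 0.60. The shift was thus present at genes that every cell uses. Enrichment over IgG, a ratio in the authors' table, moved with it: among regions enriched 20-fold to 40-fold in at least 1 library the median was 29.4 in OTX2high and 19.6 in OTX2low. A higher level of the mark in the cells and a cleaner immunoprecipitation cannot be told apart with 1 library a condition.

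The direction depended on the depth of a region. Below 50 reads, where 9.79% of regions lay in a peak, 53.4% of 8816 regions were higher in OTX2high. Between 600 and 2000 reads 93.3% of 5917 were. The 26 regions with 5000 or more reads went the other way in 17 cases, with a median log2 ratio of -0.54. All but 2 of those 17 were stretches without a coding gene start, enriched 1.53-fold to 2.57-fold over IgG. Of regions in peaks with at least 200 reads and under 3-fold enrichment, 164 of 175 were higher in OTX2low. The plot of log2 ratios against reads shows these weakly enriched regions as a band below 0.

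**Figure D1:**
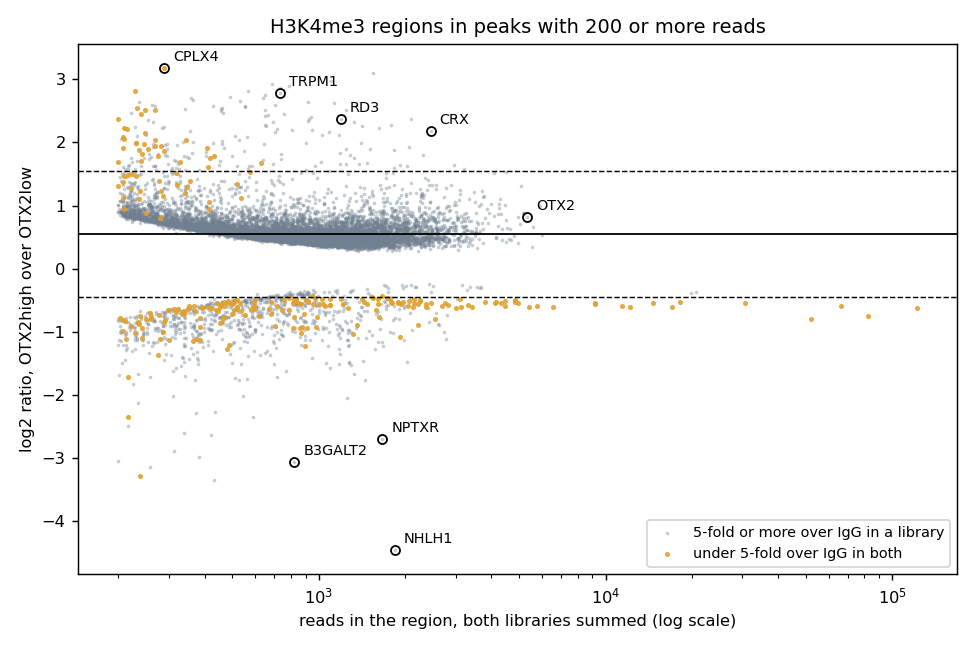
Log2 ratio of OTX2high over OTX2low against the reads of both libraries (log scale) for H3K4me3 regions in peaks with 200 or more reads, with the solid line at the shift of 0.54 and dashed lines 2-fold to either side. Most regions lie near the solid line, the empty band around 0 reflects that only regions past the authors' p-value cutoff were listed, and NHLH1 lies farthest below and CPLX4 farthest above among the circled regions.

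After allowing for the shift, 30 genes had at least 2-fold more H3K4me3 in OTX2high (0.216% of marked genes) and 469 at least 2-fold more in OTX2low (3.38%). Of genes with a value these were 0.388% and 6.07%. Each value is that of the region with the most reads near the start, in a peak and with at least 200 reads, which 7730 marked genes had. The 30 genes shared 28 regions and the 469 genes 429, since neighboring genes can share a region. Of the 7730 genes, 91.5% lay within 0.5 of the shift on the log2 scale. All 469 genes had more normalized reads in OTX2low also before the shift was taken off, and 519 of the 7730 did. Enrichment over IgG reached 5-fold in at least 1 library for 27 of the 30 genes and 465 of the 469. Without allowing for the shift, 173 genes were 2-fold higher in OTX2high and 117 in OTX2low, so the balance of the directions rests on the shift.

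The table's cutoff also shaped these counts. A region at the limit for OTX2low needed about 608 reads to be listed and a region at the limit for OTX2high about 69. Nearly every listed region that was higher in OTX2low therefore lay beyond 2-fold once the shift was taken off, and regions with equal levels in the libraries were not listed. Medians of gene lists below are over members with a listed region only. Members with equal levels in the libraries are missing from them, so a median does not give the level of a whole list. The counting interval lay wholly beyond 2-fold for 18 of the 30 genes and for 300 of the 469.

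Promoter sequences are printed first because called genes of the opposite directions differed in them. They are given for the 3 called genes with the most reads each way among those that the promoter table holds, and for NHLH1, which was added after its value was seen. Each is the 250 bases up to the gene start, read 5′ to 3′ on the gene's strand, from RefSeq's GRCh38.p14. CRX is at chr19:47821687-47821936 (plus strand), SPATS2L at chr2:200306012-200306261 (plus), SLC38A5 at chrX:48470261-48470510 (minus), BTG1 at chr12:92145847-92146096 (minus), RGS16 at chr1:182604390-182604639 (minus), NAV1 at chr1:201648416-201648665 (plus) and NHLH1 at chr1:160366821-160367070 (plus). Capitals mark TAATCC on either strand (GGATTA when read on the other), the core that OTX2 and CRX bind, and the E-boxes CAGCTG and CAGATG, which are read the same or as CATCTG on the other strand and are bound by basic helix-loop-helix factors.
CRX: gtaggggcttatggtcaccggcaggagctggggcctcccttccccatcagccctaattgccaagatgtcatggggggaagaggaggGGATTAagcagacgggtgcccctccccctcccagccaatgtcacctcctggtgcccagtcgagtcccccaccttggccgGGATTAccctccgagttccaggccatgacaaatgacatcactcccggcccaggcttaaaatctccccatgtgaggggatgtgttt
SPATS2L: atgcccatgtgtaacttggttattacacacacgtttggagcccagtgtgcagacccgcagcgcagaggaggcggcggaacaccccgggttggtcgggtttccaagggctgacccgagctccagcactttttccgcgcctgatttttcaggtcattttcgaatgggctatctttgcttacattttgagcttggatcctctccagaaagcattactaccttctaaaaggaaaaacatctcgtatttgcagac
SLC38A5: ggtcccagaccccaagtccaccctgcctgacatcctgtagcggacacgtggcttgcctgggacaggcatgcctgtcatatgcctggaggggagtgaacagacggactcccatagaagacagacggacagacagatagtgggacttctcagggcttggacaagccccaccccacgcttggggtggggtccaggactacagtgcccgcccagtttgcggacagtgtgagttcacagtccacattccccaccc
BTG1: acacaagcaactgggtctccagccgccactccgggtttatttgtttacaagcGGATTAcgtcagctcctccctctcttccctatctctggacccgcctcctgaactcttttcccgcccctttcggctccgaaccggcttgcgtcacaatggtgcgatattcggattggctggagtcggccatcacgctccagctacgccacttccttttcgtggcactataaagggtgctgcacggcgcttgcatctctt
RGS16: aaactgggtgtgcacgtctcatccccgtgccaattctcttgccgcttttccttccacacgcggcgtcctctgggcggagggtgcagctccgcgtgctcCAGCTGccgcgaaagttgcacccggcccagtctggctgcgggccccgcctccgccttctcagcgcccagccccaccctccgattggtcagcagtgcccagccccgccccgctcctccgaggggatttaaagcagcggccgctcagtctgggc
NAV1: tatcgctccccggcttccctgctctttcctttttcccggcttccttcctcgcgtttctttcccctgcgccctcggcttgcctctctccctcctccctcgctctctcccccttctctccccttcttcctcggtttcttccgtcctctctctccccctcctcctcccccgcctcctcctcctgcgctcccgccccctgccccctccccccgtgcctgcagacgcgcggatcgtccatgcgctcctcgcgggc
NHLH1: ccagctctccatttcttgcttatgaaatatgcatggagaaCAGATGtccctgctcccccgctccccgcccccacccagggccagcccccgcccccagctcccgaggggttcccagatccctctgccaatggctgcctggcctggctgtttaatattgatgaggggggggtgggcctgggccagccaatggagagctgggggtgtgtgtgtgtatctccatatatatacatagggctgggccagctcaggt

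The CRX promoter held TAATCC 164 and 85 bases upstream of the start, and BTG1 held it 198 bases upstream. RGS16 held CAGCTG 152 bases upstream and NHLH1 held CAGATG 210 bases upstream. No match to the 3 motifs was in the windows of SPATS2L, SLC38A5 and NAV1. In the 300-base window from 250 bases before to 50 bases after the start, CRX had 8 CpG, SPATS2L 13 and SLC38A5 7, against 22 at BTG1, 26 at RGS16 and 24 at NAV1. NHLH1 had 4.

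Over all called genes with a promoter in the table, 11 of 22 higher in OTX2high (50.0%) held TAATCC in the window, against 18 of 353 higher in OTX2low (5.10%), 4.32% of the 11198 marked genes and 6.36% of all 35116 promoters. The E-box CAGCTG stood in 27.3% of the first group, 20.4% of the second and 16.7% of marked genes, and CAGATG in 13.6%, 11.9% and 8.81%. The median number of CpG per window was 6 for genes higher in OTX2high, 29 for genes higher in OTX2low and 27 for marked genes. Promoters of genes higher in OTX2high thus had fewer CpG and held the TAATCC core more often in these 22 windows. A match is a description of the letters and not of binding, since OTX2 binding was not measured.

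The sites nearest the start are shown for the 6 further genes with TAATCC that are described below. Each is given as 30 bases on the gene's strand, with only that site's core in capitals. In CPLX4 (chr18:59318638-59318667, minus strand) it began 6 bases upstream of the start, in TRPM1 (chr15:31161220-31161249, minus) 77, in BCO1 (chr16:81238593-81238622, plus) 84, in FRMPD2 (chr10:48274863-48274892, minus) 184, in CABP2 (chr11:67523516-67523545, minus) 87 and in RPGRIP1 (chr14:21280029-21280058, plus) 42.
CPLX4: agttcaccacttTAATCCagcttacggccg
TRPM1: ttggggatggagGGATTAagcctgattaca
BCO1: ggaacaataagaGGATTAaagattagctat
FRMPD2: ttcagtggcaccTAATCCacttgagctctt
CABP2: aaagataatcccGGATTAggacccaagccc
RPGRIP1: ctaaacagaactGGATTAgctcctctttta

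The other genes with the core were SMIM36, KCNF1, MUC16 and TRIM38. BCO1, CRX, CABP2, SMIM36 and KCNF1 held it at more than 1 position. The CABP2 stretch above holds the gene's other core, 94 bases upstream of the start, in lower case.

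**Figure D2:**
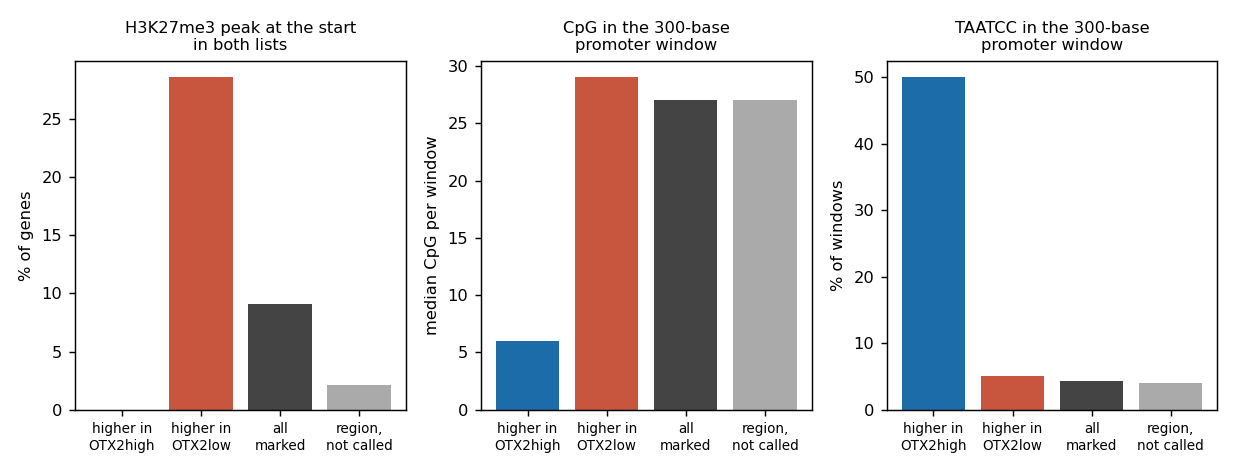
Bars give, for 30 genes higher in OTX2high, 469 higher in OTX2low, all marked genes and genes with a region that were not called, the percent with an H3K27me3 peak in both lists (left), the median CpG per promoter window (middle) and the percent of windows with TAATCC (right). Genes higher in OTX2high have a median of 6 CpG and TAATCC in 50.0% of windows, and genes higher in OTX2low have an H3K27me3 share of 28.6%, against 0 of 30 genes higher in OTX2high and 2.16% of genes not called.

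Genes higher in OTX2high included CRX and 2 further members of the photoreceptor list. CRX, the homeodomain factor that drives photoreceptor genes, had 1718 normalized reads (OTX2high) against 380 (OTX2low) over chr19:47818701-47829400. This was 3.1-fold beyond the shift (log2 1.63, interval 1.46 to 1.81) in a region shared with the start of TPRX1. OTX2high was the high library here also after the shift was taken off. OTX2 itself had 3119 reads in OTX2high and 1768 in OTX2low over chr14:56807601-56820000, a log2 ratio of 0.28 beyond the shift (0.19 to 0.36). OTX1, its paralog, lay at 0.02 with 657 and 444 reads. Of the OTX and CRX genes, CRX alone passed 2-fold.

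Of 27 marked photoreceptor genes 3 were higher in OTX2high (11.1%, against 0.216% of marked genes) and 0 higher in OTX2low. The median of the 15 with a region was 0.51 beyond the shift, against -0.02 over all 7730 genes, and 11 of the 15 lay above the shift. RD3, which restrains the guanylate cyclases of photoreceptors, had 846 reads in OTX2high and 164 in OTX2low (log2 1.82 beyond the shift, interval 1.56 to 2.09). RPGRIP1, a protein of the photoreceptor's connecting cilium, had 788 and 249 reads (1.12, 0.89 to 1.34). CRX was the other. In all of them OTX2high was the high library.

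Just under 2-fold lay IMPG2 of the matrix between photoreceptors at 0.89, TULP1 at 0.83 and PROM1, a protein of photoreceptor discs also known as the stem cell antigen CD133, at 0.69. IMPG2 had 1521 reads in OTX2high and 562 in OTX2low, and PROM1 had 2338 and 994. EYS lay at 0.33 with an interval from -0.01 to 0.67. Not all members were high: the cone transducin gene GNAT2 lay at -0.18, and CNGA1 and SLC24A1 of the rod channel and exchanger lay at -0.09 and -0.10. Without allowing for the shift, 8 of the 15 were 2-fold higher in OTX2high and 0 in OTX2low.

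Several other genes higher in OTX2high are also known from the retina. They were picked after their values were seen, and retinal genes outside the lists were not counted. CPLX4, a complexin of retinal ribbon synapses, stood farthest above the shift with 215 reads in OTX2high and 23.8 in OTX2low (log2 2.63, interval 1.96 to 3.39), but its region was enriched only 4.61-fold and 0.65-fold over IgG. TRPM1, the cation channel of ON bipolar cells, had 536 and 77.7 reads (2.24, 1.87 to 2.64) and was enriched 23.6-fold and 2.93-fold. BCO1, which cleaves beta-carotene to retinal, had 538 and 99.0 reads (1.90, 1.56 to 2.25). In OTX2low the enrichment over IgG was thus at most a few fold at CPLX4 and TRPM1.

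CACNA2D4, a calcium channel subunit of photoreceptor terminals, had 353 reads in OTX2high and 82.7 in OTX2low (2.93-fold beyond the shift). The calcium sensor gene CABP2 had 200.2 and 51.4 (2.67-fold). SLC1A7, a glutamate transporter found mainly in the retina, had 1350 and 435 (2.13-fold). All 3 were higher in OTX2high before and after the shift was taken off.

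The remaining genes higher in OTX2high had varied roles. HSD17B2, a steroid dehydrogenase, lay at 2.05 beyond the shift with 189 and 31.3 reads in OTX2high and OTX2low. AGBL1, a tubulin carboxypeptidase, lay at 1.98, FRMPD2 at 1.71, the hexokinase HKDC1 at 1.45 and the potassium channel subunit KCNF1 at 1.26. C6orf163 at 1.96 and ANXA13 at 1.67 rested on regions enriched 3.04-fold and 5.45-fold in OTX2high. For ANXA13 both gene ends served as starts, so its region need not lie at the true start. Others of the 30 were SMIM36, WFDC1 with its neighbor LOC124903734, SLC38A5, IFITM1, AQP1, NRXN3, MUC16, SPATS2L, PRICKLE2, TRIM38 and TRIM51G, between 1.01 and 1.33.

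**Figure D3:**
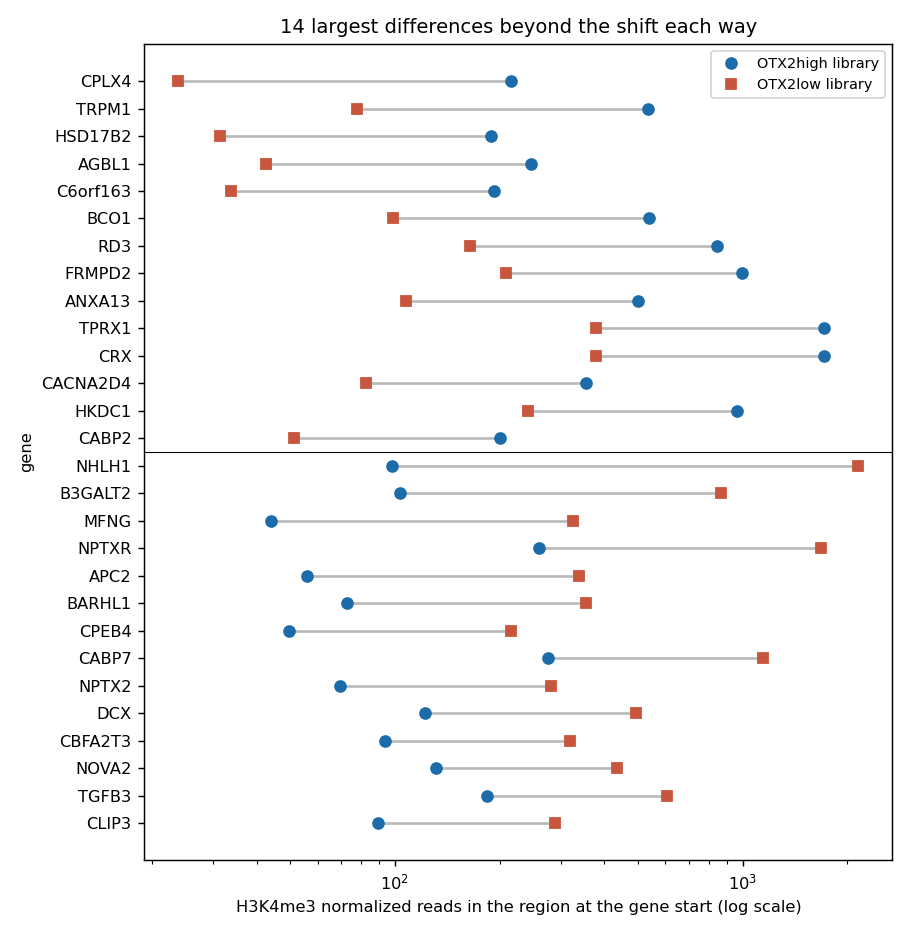
Normalized H3K4me3 reads in the region at the gene start (log scale) in OTX2high (circles) and OTX2low (squares), 1 library each, for the 14 genes farthest above and the 14 farthest below the shift. CPLX4 spans 23.8 to 215 reads, CRX 380 to 1718, and NHLH1 98.1 to 2154 in the other direction. For ANXA13, whose strand was not given, a region at either gene end was taken.

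Genes higher in OTX2low included many neuronal genes, and NHLH1 stood far ahead. NHLH1, a bHLH transcription factor of newly formed neurons, had 98.1 reads in OTX2high and 2154 in OTX2low over chr1:160364801-160373100. This was 32.0-fold beyond the shift (log2 -5.00, interval -5.28 to -4.74). Its region was enriched 1.15-fold over IgG in OTX2high and 25.7-fold in OTX2low, and its peak was in the OTX2low list alone. The mark at this start was therefore close to the IgG level in 1 library and strong in the other.

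Of the 14 marked proneural and neuronal bHLH genes, 3 were higher in OTX2low (21.4%, against 3.38% of marked genes) and 0 in OTX2high. NEUROD2, a factor of postmitotic neurons, had 621 reads in OTX2high and 1241 in OTX2low (-1.54 beyond the shift, interval -1.68 to -1.41). OLIG2, a factor of oligodendrocyte and motor neuron precursors, had 362 and 1023 (-2.04). NEUROD1 lay near the shift at 0.15 with 767 and 474 reads. ATOH1 and NEUROG2 had peaks at the start in both lists but no region in the table there.

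The list of immature neuron genes had 17 of 44 marked members higher in OTX2low (38.6%, against 3.38% of marked genes) and 0 in OTX2high. The median of the 26 with a region was -1.33 beyond the shift, and -0.78 before it was taken off. DCX, which binds the microtubules of migrating neurons, had 122 reads in OTX2high and 493 in OTX2low (-2.56, -2.84 to -2.28). The neuronal splicing factor NOVA2 had 131 and 436 (-2.28). OTX2low was the high library at both, before and after the shift was taken off.

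The neuronal repressor SCRT2 lay at -2.09 and the RNA-binding ELAVL3 at -2.01, the latter with 412 and 1138 reads in OTX2high and OTX2low. TUBB3, the neuronal beta-tubulin, had 346 and 806 (-1.76). The neuroendocrine zinc finger factors INSM1 and INSM2 lay at -1.71 and -1.35, the neurofilament genes NEFL, NEFM and INA at -1.38, -1.34 and -1.18, and STMN2 of growth cones at -1.02 with 1278 and 1783 reads. These starts carried the mark in both libraries and more of it in OTX2low.

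Synaptic vesicle and release genes had 11 of 40 marked members higher in OTX2low (27.5%, against 3.38% of marked genes) and 1, CPLX4, higher in OTX2high (2.50%, against 0.216%). The median was -1.16 for the 18 with a region, and the other marked members had no value. SYT5, a vesicle calcium sensor, had 78.2 reads in OTX2high and 197 in OTX2low (-1.88). The SNARE genes STX1A and SNAP25 lay at -1.76 and -1.20, and the vesicle genes SYN1 and SYP at -1.51 and -1.37. SLC17A7, the glutamate transporter of excitatory vesicles, had 903 and 1630 reads (-1.40). CPLX1, the complexin of central synapses, lay at -1.23, so CPLX1 and CPLX4 differed in opposite directions.

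Neural adhesion genes had 9 of 37 marked members higher in OTX2low (24.3%, against 3.38%) and 1 on the opposite side. The 15 with a region had a median of -1.35. The 3 genes of the neuronal pentraxin family, which cluster glutamate receptors, were among the 9. NPTXR had 259 reads in OTX2high and 1682 in OTX2low (-3.24, -3.42 to -3.07), NPTX2 had 69.4 and 281 (-2.56) and NPTX1 had 952 and 1918 (-1.55). Of the presynaptic neurexins, NRXN2 lay at -1.62 and NRXN3 at 1.16, the latter with 302 and 92.8 reads. The axonal adhesion gene L1CAM lay at -2.0.

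Axon guidance genes of the SLIT, ROBO, netrin, semaphorin and plexin families had 11 of 43 marked members higher in OTX2low (25.6%, against 3.38%) and 0 in OTX2high. The 20 with a region had a median of -1.25. The ligand SLIT1 had 352 reads in OTX2high and 1113 in OTX2low (-2.21, -2.37 to -2.04), and SLIT3 lay at -1.42. Among receptors, NRP2 had 207 and 637 reads (-2.17), NRP1 lay at -1.40, DCC at -1.50, UNC5A at -1.60 and UNC5B at -1.69. The semaphorins SEMA6A and SEMA6C lay at -1.44 and -1.12. The called members thus included both ligands and receptors.

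Of 20 marked EPH receptor and ephrin genes 4 were higher in OTX2low (20.0%, against 3.38%) and 0 in OTX2high. EPHA3 lay at -1.91, EPHB2 at -1.80 and the ligand EFNB2 at -1.24, the last with 814 reads in OTX2high and 1321 in OTX2low. EPHB3 lay at -1.19 in its deepest region, but within 500 bp of its start the deepest region lay at 0.80, so its direction depends on the window. The list's median was 0.04, close to the -0.02 of all genes. Of 47 marked neurotransmitter receptor and sodium channel genes 6 were higher in OTX2low (12.8%), among them the kainate receptor gene GRIK2 at -1.95 with 281 and 746 reads, and the median was 0.04.

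**Figure D4:**
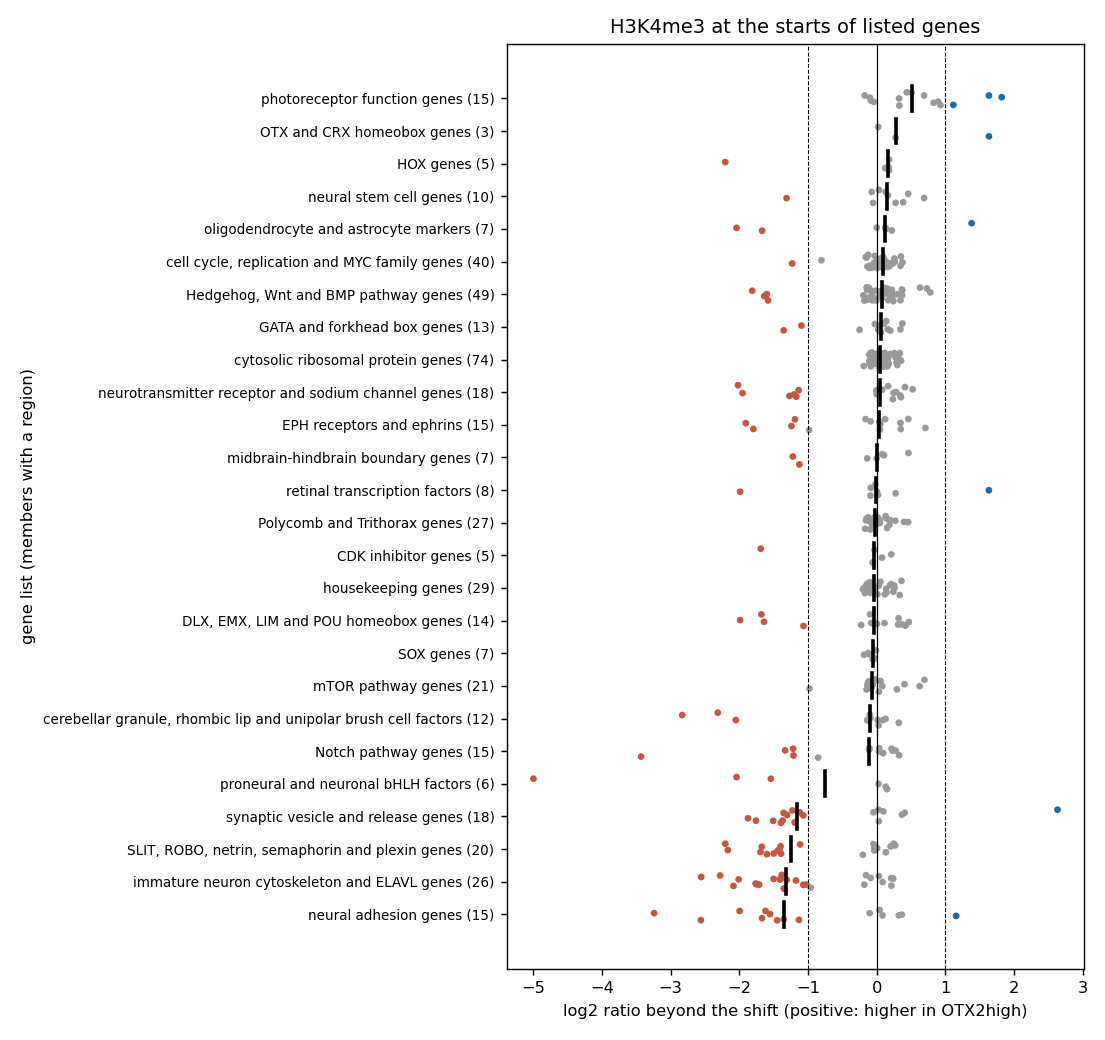
Log2 ratio beyond the shift for each member with a region of 200 or more reads, by gene list, with the number of such members in brackets, black bars at list medians and dashed lines at 2-fold. Immature neuron, adhesion, synaptic and guidance genes have medians between -1.35 and -1.16, and photoreceptor genes have 0.51. Ribosomal and housekeeping genes lie within 0.36 of the shift. Members with equal levels in the libraries were not listed and are missing from the points and medians.

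Transcription factors of the cerebellum were higher in OTX2low in a few cases. BARHL1, a homeodomain factor of granule neurons, had 72.6 reads in OTX2high and 355 in OTX2low (-2.83, -3.19 to -2.49). The corepressor genes CBFA2T3 and CBFA2T2 lay at -2.31 and -2.05. These were the 3 called of 24 marked members (12.5%, against 3.38% of marked genes) of 1 list. It covers granule cells, the rhombic lip and unipolar brush cells, and its median was -0.10. Midbrain-hindbrain boundary genes had 2 of 13 (15.4%), IRX3 at -1.22 and FGF18 at -1.13.

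Other homeobox lists had single members on the OTX2low side. Of 30 marked DLX, EMX, LIM and POU genes 4 were higher in OTX2low (13.3%, against 3.38% of marked genes). Among them ONECUT1 lay at -1.99, EMX1 at -1.68, DLX3 at -1.64 and LHX1 at -1.07. LHX1 lay at -0.12 with a window of 5000 bp, so its call depends on the window. EMX1, a factor of the cerebral cortex, had 661 reads in OTX2high and 1452 in OTX2low. ONECUT1 was also the 1 retinal transcription factor of 16 marked on that side (6.25%), with CRX on the other (6.25%, against 0.216%). Of 28 marked HOX genes HOXA13 alone was called, at -2.21 (3.57%). Of 37 marked GATA and forkhead genes FOXO6 lay at -1.36 and FOXD3 at -1.10 (5.41%). The HOX and the GATA and forkhead shares were near the 3.38% of all marked genes. Each of these lists had its median close to the shift, between -0.04 and 0.17.

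Few PAX genes carried H3K4me3 at the start, with 2 of 9 marked. PAX3, which the study's title names, is a paired-box factor of dorsal neural tissue. It had no H3K4me3 peak within 2000 bp of its start in either list, and had an H3K27me3 peak there in both H3K27me3 lists. PAX6, the factor of the eye and of granule cell progenitors, had 177 reads in OTX2high and 114 in OTX2low (0.09 beyond the shift, interval -0.27 to 0.46). Its region was enriched 33.9-fold over IgG in OTX2high and 20.1-fold in OTX2low. Its start also had an H3K27me3 peak in both H3K27me3 lists. PAX6 was the 1 PAX gene with a region, of 2 that were marked. No PAX gene was 2-fold beyond the shift.

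A few signaling genes were called. Of 28 marked Notch pathway genes 4 were higher in OTX2low (14.3%, against 3.38% of marked genes): MFNG, a fringe glycosyltransferase that modifies Notch, had 43.9 reads in OTX2high and 325 in OTX2low (-3.43, -3.88 to -3.01), the ligands DLL3 and DLL4 lay at -1.33 and -1.22, and NUMBL lay at -1.21. Of 90 marked Hedgehog, Wnt and BMP genes 4 were higher in OTX2low (4.44%), a share near that of all marked genes, among them WNT7B at -1.81, the Hedgehog target GLI1 at -1.64 and the Wnt enhancer RSPO3 at -1.60. GLI1 had 402 and 859 reads. The medians were -0.11 over 15 Notch genes and 0.07 over 49 Hedgehog, Wnt and BMP genes with a region.

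Genes of growth and chromatin mostly followed the shift. Of 44 marked cell cycle and MYC genes MYCN alone was called (2.27%, near the 3.38% of all marked genes). It lay at -1.23 with 457 reads in OTX2high and 736 in OTX2low. MYC, the oncogene amplified in some Group 3 tumors, lay at -0.20 with 1381 and 1091. Of 7 CDK inhibitor genes CDKN1C lay at -1.69 (14.3%), and of 19 marked neural stem cell genes KLF4 lay at -1.31 (5.26%). None of the marked genes of the mTOR (34), Polycomb and Trithorax (45), ribosomal protein (77), housekeeping (32) and SOX (16) lists was called. Over all marked genes the shares were 3.38% toward OTX2low and 0.216% toward OTX2high, so few calls fall in lists of this size. The lowest mTOR gene lay at -0.98, just short of the limit. The members with the most reads in the last 4 of those lists were KMT2D at -0.07, RPL23A at 0.11, LDHA at 0.24 and SOX4 at -0.11.

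Markers of other cell types gave few calls. Of 13 marked glial genes 2 were higher in OTX2low (15.4%, against 3.38% of marked genes). OLIG2 and PDGFRA, both of oligodendrocyte precursors, lay at -2.04 and -1.67. CD4 lay at -1.21 among 6 marked immune, blood and endothelial genes (16.7%). Of 7 marked mesenchymal, muscle and epithelial genes none was called, and ACTA2, with the most reads, lay at -0.06.

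Among the 15 genes farthest below the shift were also some on no list. B3GALT2, a galactosyltransferase of the brain, had 104 reads in OTX2high and 869 in OTX2low (-3.61, -3.89 to -3.34). APC2, the neuronal relative of the tumor suppressor APC, had 55.8 and 338 (-3.14), and lay at -1.52 with a window of 5000 bp. The mRNA-binding CPEB4 lay at -2.67, the calcium-binding CABP7 at -2.60 with 275 and 1143 reads, TGFB3 at -2.26 and CLIP3 at -2.24. At each of these OTX2low was the high library. The promoters printed above belong to genes with smaller ratios and more reads: BTG1, a brake on proliferation, had 1090 and 1809 reads (-1.28), RGS16, a regulator of G-protein signaling, 962 and 1779 (-1.43), and NAV1, a neuronal microtubule protein, 957 and 1766 (-1.43).

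H3K27me3 at the start, which the rule did not use, was more frequent among genes higher in OTX2low than among marked genes. A start with an H3K27me3 peak in both H3K27me3 lists was found for 134 of the 469 genes higher in OTX2low (28.6%), for 0 of the 30 higher in OTX2high, for 9.06% of marked genes and for 2.16% of the 7231 genes with a region that were not called. Of the 6147 marked genes without such a region 15.7% had one. Only starts in both lists were counted because the H3K27me3 sample labels and file headers name opposite conditions. Of the 17 immature neuron genes higher in OTX2low 9 had both marks, among them NOVA2, ELAVL3 and INSM1, while DCX and TUBB3 did not. NHLH1 and SLIT1 also lacked it, and BARHL1, NPTXR, MFNG and all 4 of the DLX, EMX, LIM and POU genes had it. The marks were read in separate libraries of many cells, so they need not lie on the same nucleosome.

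Away from gene starts the balance differed. Of 9529 regions in peaks with at least 200 reads and 5-fold enrichment in either library, 150 were 2-fold higher in OTX2high beyond the shift (1.57%) and 679 in OTX2low (7.13%). Within 2000 bp of a coding gene start lay 18% of the first, 72.0% of the second and 80.8% of all such regions. Regions over a start were higher in OTX2high in 0.826% of cases and higher in OTX2low in 8.26%. At more than 50000 bp from any start these shares were 12.1% and 9.49%. The distant regions were also shallower, with a median of 572 reads against 1048 over a start. Toward OTX2high went 82 of 357 regions enriched 5-fold to 10-fold and 1 of 3599 enriched 40-fold or more, and toward OTX2low 87 and 147. The part of depth and enrichment in the change with distance was not tested. Regions higher in OTX2high were also longer, with a median of 4300 bp against 2300 bp for those higher in OTX2low and 1800 bp for all.

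**Figure D5:**
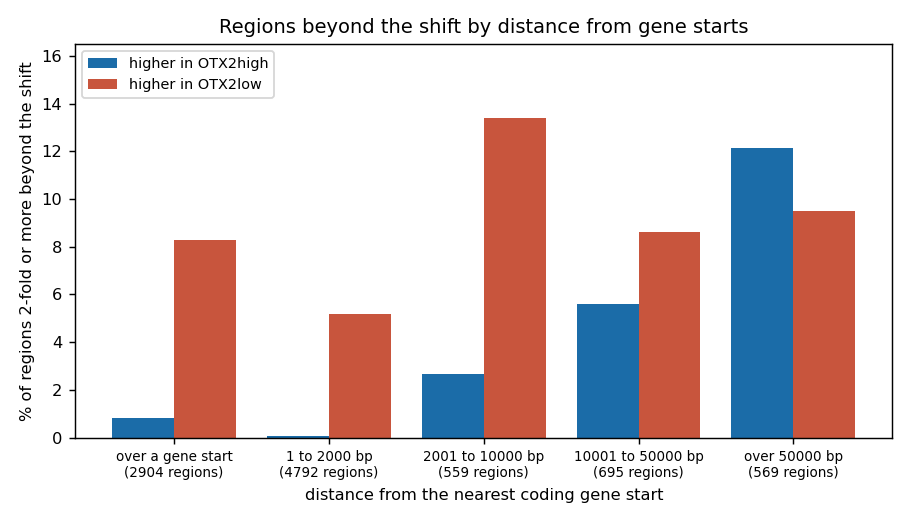
Percent of enriched H3K4me3 regions that were 2-fold or more beyond the shift toward OTX2high or toward OTX2low, by distance from the nearest coding gene start, with the number of regions under each class. The share toward OTX2high is 0.826% over starts and 12.1% beyond 50000 bp, and the share toward OTX2low stays between 5.20% and 13.4%.

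The region farthest above the shift away from starts lay at chr14:22488101-22495700, with 1145 reads in OTX2high and 134 in OTX2low (2.55 beyond the shift). Its nearest coding gene was DAD1, 69207 bp away, and genes of other kinds were not searched. Regions inside genes were at chr15:47391701-47397600 in SEMA6D (816 and 104 reads, 2.43), at chr3:183397101-183402000 in MCF2L2 (580 and 77.7, 2.36) and at chr3:100436501-100441900 in LNP1 (538 and 74.0, 2.32). On the other side, the region farthest below the shift was at chr3:90160901-90168300 (46.3 and 469 reads, -3.89), 678767 bp from EPHA3, the nearest coding gene. Regions 4975 bp from NGDN (-3.68) and 87019 bp from EFEMP1 (-3.59) followed, again by the nearest coding gene. Inside genes the regions farthest below were in CELSR2 (chr1:109252101-109257200, 50.3 and 399 reads, -3.53), a cadherin of neurons, in ZC3H12C (chr11:110130101-110135300, 67.8 and 422, -3.18) and in PLCH2 (chr1:2442501-2445900, 37.5 and 212, -3.04). The table of genes used here gives gene ends but no exons, so the place within a gene is not given.

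Peak lists, which need no ratio, gave a smaller picture. The share of peaks that the other list overlapped was 67.1% in OTX2high (Wilson interval 66.6 to 67.6) and 87.4% in OTX2low (87.0 to 87.8). Peaks of 1 list alone were weak and short, with a median fold enrichment of 4.22 in OTX2high and 4.16 in OTX2low, against 29.5 and 19.3 for shared peaks, and median lengths of 293 bp and 229 bp. Of 13870 genes with a peak at the start 248 had one in OTX2high alone (1.79%) and 128 in OTX2low alone (0.923%). OTX2high was both the library with more tags and the one with more peaks of its own.

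The strongest peak at a start in OTX2high alone was at PDE6G, the inhibitory subunit of the rod phosphodiesterase, with a fold enrichment of 71.0 over chr17:81665032-81668852, followed by the ATP receptor gene P2RX3 with 56.6. Both peaks overlapped an OTX2low peak that ended outside the window, with a fold enrichment of 71.9 and 40.4, so the mark was present there in both libraries. This held for 21 of the 248 genes and for 2 of the 128. In OTX2low alone the strongest were NHLH1 with 47.1 and the astrocyte water channel gene AQP4 with 18.7, the latter also overlapping an OTX2high peak outside the window. Leaving such cases out, a choice made after the values were seen, the strongest in OTX2high alone were ANXA13 with 11.2, for which both gene ends served as starts, AGBL1 with 11.1, the water channel gene AQP1 with 10.8 and CPLX4 with 10.5. In OTX2low alone APC2 with 14.6 and MFNG with 12.4 followed NHLH1.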

How the data were processed

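The submitters' processing notes name Bowtie2 2.3.3.1, GRCh38 and MACS2 2.1.1.20160309. Both H3K4me3 lists hold peaks of a single library over an IgG control at a q-value of 0.05, and the peaks carry a pileup signal, a -log10 p-value and a fold enrichment ratio, per the file headers. The authors' differential table was made with diffReps 1.55.6 (windows of 1000 bp, steps of 100 bp, p-value cutoff 0.0001, G-test of 1 library against 1), per the file headers. Its command names hg19, but its regions matched the GRCh38 peaks. The deposited read signal per region was divided by a constant of 1.25 for OTX2high and 0.80 for OTX2low, per the file headers.

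Dividing the deposited signal by 0.798 (OTX2high) and 1.25 (OTX2low) gave whole read counts within 0.05 for 100% of values. As a check, a G-test on these counts called 21259 of 21714 regions at a p-value of 0.0001. The log2 ratios were computed here from the scaled reads, with Python 3.11.15, pandas 2.3.3 and SciPy 1.17.1, and the code was tested on simulated data. The authors' deposited log2 column was not printed. No count model across replicates could be fitted with 1 library a condition.

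Gene starts came from RefSeq's GRCh38.p14 promoter table for 15811 coding genes, and both gene ends were used for 4159 without one there. A gene took the region with the most reads within 2000 bp of its start, and was called at 2-fold beyond the shift with at least 200 reads in a peak (overlap of at least 1 bp).

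The members, gene lists and limits were chosen with earlier results of these data known. Named were the 15 genes farthest from the shift each way, up to 4 called members of a list each way or otherwise its deepest member, OTX2, PAX3 and PAX6, and 2 genes with a peak in 1 list alone each way. Further list members, regions away from starts and NHLH1's promoter were named after their values were seen. The IgG libraries were assigned to no group. Results for some genes are not reported here.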

Additional observations from a re-analysis of the deposited data

How the results depend on the processing

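Calls of genes beyond the shift followed the settings as follows. Without allowing for the shift, the counts were 173 toward OTX2high and 117 toward OTX2low, against 30 and 469. With at least 50 reads a region 124 genes were higher in OTX2high and with at least 600 reads 18 were, while 208 were higher in OTX2low with at least 600. The number of genes with a peak in OTX2low alone was 75 instead of 128 when peaks needed a -log10 q-value of 5, and the share of peaks that overlapped the other list was 62.0% in OTX2high and 85.0% in OTX2low when the overlap had to cover at least 50% of the peak. EPHB3 lay at 0.80 beyond the shift in a window of 500 bp, against -1.19. In a window of 5000 bp APC2 lay at -1.52 instead of -3.14 and LHX1 at -0.12 instead of -1.07. Why these values moved was not tested, apart from fewer regions at a higher read minimum. The shift was 0.61 over all regions, 0.58 over starts with 2000 or more reads, 0.51 over housekeeping genes and 0.37 over all marked genes with those lacking a region set to 0, the last added after seeing the data. The counts of called genes stayed within 1.5 times under these 4 shifts, without the need for a peak, with 5-fold enrichment (also added after seeing the data), in windows of 500 and 5000 bp and with reads summed over regions. Of 75 named genes that were called, 18 were under 2-fold without allowing for the shift and 3 under the smallest shift. In a window of 500 bp 62 of the 75 stayed called and EPHB3 changed sign. The rest had no value in that window, among them HOXA13, CPEB4, TGFB3, ONECUT1 and STX1A. Leaving out a library was not run, since it leaves no comparison. No paired analysis was possible because each condition has 1 library. Depth limits the low side: at the limit toward OTX2low a region needed 608 reads to be listed, so weaker regions with such a ratio are missing from the table.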

Other observations

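Some genes of the endoplasmic reticulum and of the integrated stress response, which no list above covers, were among those higher in OTX2low. A list of 66 such genes, written after some of their values were seen, had 20 of 65 marked members higher in OTX2low (30.8%, against 3.38% of marked genes) and 0 in OTX2high. Its median was -0.14 beyond the shift over 49 members with a region, and 29 of the 49 had more reads in OTX2high before the shift was taken off. SLC7A11, the cystine transporter, had 110 normalized reads (OTX2high) against 251 (OTX2low, -1.73 beyond the shift), and CHAC1, which degrades glutathione, had 369 and 713 (-1.50). The chaperone genes SDF2L1 and HYOU1 lay at -1.51 and -1.43, the translocon gene SEC61A1 at -1.25, the coat genes COPA and SEC24D at -1.55 and -1.24, and PPP1R15A, which reverses the phosphorylation of eIF2 alpha, at -1.06. The best known members did not move with them: HSPA5 had 1348 and 1007 reads (-0.12), DDIT3 had 778 and 603 (-0.18) and ATF4 had 294 and 203 (-0.01). Because the list was written after values were seen, its count is a description.

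Ion channel families, taken by symbol after values were seen, were split. Of 67 marked potassium channel genes (symbols starting KCN) 9 were higher in OTX2low (13.4%, against 3.38% of marked genes) and 1, KCNF1, in OTX2high (1.49%, against 0.216%). KCNH7 lay at -1.71, KCNC4 at -1.63 with 291 and 618 reads in OTX2high and OTX2low, and KCNK3 at -1.49. Of 23 marked calcium channel genes (symbols starting CACN) 5 were higher in OTX2low (21.7%), with CACNA2D2 at -1.90 and 359 and 919 reads, while its relative CACNA2D4 was the 1 higher in OTX2high (4.35%).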
